A study of Mus musculus with 25 samples.

Results

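The genes described here are 9 components of transforming growth factor beta (TGF-beta) signaling, listed by symbol with earlier results of these data known: the ligand gene Tgfb1, the latency gene Nrros, the receptor genes Tgfbr1 and Tgfbr2, the signal transducer genes Smad2, Smad3 and Smad4, and the inhibitor genes Smad7 and Ski. They were 9 of 43411 genes in the count table, and all 9 were among the 12908 genes with enough counts to be tested. Microglia were sorted by FACS as CD11b+ CD45med cells from the brains of 23 mice at 3 months of age, and the RNA of each mouse was sequenced as 1 library. Every mouse carried at least 1 floxed Bin1 allele (strain B6.129S6-Bin1tm2Gcp/J), and Cre came from the FVB/N-Tg(Thy1-cre)1Vln/J line. The 6 WT littermates (2 females and 4 males) were Bin1flox/wt without Cre, the 7 heterozygous Bin1-cKO mice (4 females and 3 males) were Bin1flox/wt with Thy1-Cre, and the 10 homozygous Bin1-cKO mice (5 females and 5 males) were Bin1flox/flox with Thy1-Cre. The Thy1 promoter of this line drives Cre in forebrain excitatory neurons, so that the sorted cells were not the cells targeted for deletion, and homozygous mice differed from the other groups in carrying no allele without loxP sites. The question was whether microglia respond to the loss of Bin1 in neurons.

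TGF-beta1 is secreted in a latent complex. In microglia the transmembrane protein NRROS, also named LRRC33, holds that complex at the cell surface, and integrins that contain the alpha V chain release the active ligand. The ligand joins the type II receptor TGFBR2 to the type I receptor TGFBR1, which phosphorylates SMAD2 and SMAD3. These enter the nucleus with SMAD4, where SKI represses their targets, while SMAD7 blocks the receptor. Adult microglia depend on this pathway for their characteristic gene expression.

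Tgfb1 lies on chromosome 7 (25687002 to 25705077, GRCm38), Tgfbr1 and Ski on chromosome 4 (47353222 to 47414931 and 155154075 to 155222592), Tgfbr2 and Smad3 on chromosome 9 (116084293 to 116175360 and 63646767 to 63757994) and Nrros on chromosome 16 (32142785 to 32165594). RefSeq promoter sequences (GRCm38.p6) were matched for 6 of the 9 members. The 250 bases before the annotated start are shown for Tgfb1 and Smad3, the members that differed between homozygous mice and WT littermates, and for Tgfbr2, the receptor of the ligand. Capitals mark the GC box (GGGCGG or CCGCCC, which binds Sp1 family factors) in Tgfb1 and Smad3 and a PU.1 core (GAGGAAG or CTTCCTC, PU.1 being a lineage factor of microglia) in Tgfbr2.
Tgfb1, chr7:25686752-25687001, plus strand: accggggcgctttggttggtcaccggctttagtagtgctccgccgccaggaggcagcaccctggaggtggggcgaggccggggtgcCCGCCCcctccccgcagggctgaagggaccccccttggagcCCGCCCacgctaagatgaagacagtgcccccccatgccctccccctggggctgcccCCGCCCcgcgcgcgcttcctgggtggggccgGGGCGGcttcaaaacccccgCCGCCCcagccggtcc
Smad3, chr9:63757995-63758244, minus strand: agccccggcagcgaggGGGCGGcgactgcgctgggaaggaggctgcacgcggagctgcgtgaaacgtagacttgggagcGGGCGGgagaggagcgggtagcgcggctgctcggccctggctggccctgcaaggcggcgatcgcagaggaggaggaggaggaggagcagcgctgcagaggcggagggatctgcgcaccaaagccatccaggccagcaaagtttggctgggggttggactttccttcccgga
Tgfbr2, chr9:116175364-116175613, minus strand: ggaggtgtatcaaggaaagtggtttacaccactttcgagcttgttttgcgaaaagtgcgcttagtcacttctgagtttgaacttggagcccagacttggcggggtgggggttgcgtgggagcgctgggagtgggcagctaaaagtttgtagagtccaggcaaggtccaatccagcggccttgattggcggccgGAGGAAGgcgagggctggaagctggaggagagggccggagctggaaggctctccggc

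The Tgfb1 window held 5 GC boxes and the Smad3 window 2, and a GC box was present in 32.7% of 32851 RefSeq mouse promoter windows of the same 250 bases. Their base composition was 75.2% G and C in Tgfb1 and 69.2% in Smad3, against a median of 52.4% over all windows. The PU.1 core of the Tgfbr2 window began 57 bases before the start, and such a core was present in 10.6% of all windows. Both strands were also searched for the Smad box (CAGACA or TGTCTG, in 17.1% of windows), the palindromic Smad element (GTCTAGAC, in 0.167%) and the AP-1 site (TGANTCA, in 6.75%), and none of these 3 was in the 3 windows shown. No 2 of these motifs overlapped in the windows shown. A match of letters is a description of the sequence, and no binding was measured here.

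The libraries held 10812969 to 16734846 counts (median 13477985), of which the 9 members had between 684 and 37694 each in a mouse. Summed markers of microglia far exceeded those of each other cell type examined. They reached 62200 to 89310 CPM (counts scaled by the normalized library total) in WT littermates, 57950 to 78060 in heterozygous mice and 53460 to 62570 in homozygous mice. Of 7 border macrophage markers, 6 were detected and summed to 6.90 to 31.6 CPM in WT littermates, 13.3 to 54.4 in heterozygous mice and 5.94 to 38.2 in homozygous mice. The other, Mrc1, was listed at 0 in every mouse, which in expected counts can be a failed estimate and is not read as absence. Summed neuronal markers reached 2.04 to 5.86 CPM in homozygous mice, 6.23 to 32.2 in WT littermates and 7.92 to 27.3 in heterozygous mice. Endothelial and pericyte markers summed to 50.4 to 94.2 CPM (median 72.0) in WT littermates and 37.0 to 64.1 (51.6) in homozygous mice. Astrocyte markers summed to 228.7 to 263.5 CPM in WT littermates and 227.3 to 307.9 in homozygous mice. Oligodendrocyte markers summed to 82.6 to 144.5 CPM in WT littermates and 64.3 to 96.7 in homozygous mice. Summed markers of monocytes and neutrophils were higher in homozygous mice (11.8 to 56.0 CPM, median 29.4) than in WT littermates (4.63 to 20.2, median 8.77) or heterozygous mice (4.43 to 29.0, median 7.70), with overlapping ranges. Over the 4 genes tested the median log2 fold change against WT littermates was 1.69, and 1 of these 4 was past the threshold, beside 12.7% of all genes. The part of these marker levels in the results below was not tested. Bin1 itself was at 699 ± 88.3 CPM in WT littermates (SD, n = 6), 692 ± 40.6 in heterozygous mice (n = 7) and 481 ± 130.2 in homozygous mice (n = 10), and homozygous mice differed from WT littermates by -0.60 on the log2 scale (SE 0.12, adjusted p = 0.0017). Bin1 was thus lower in the sorted cells of homozygous mice as well, and its part in the results below was not tested. Here and below, adjusted p-values are those of the quasi-likelihood test in edgeR after the Benjamini-Hochberg method, and fold changes are on the log2 scale. The homozygous mice F1, F2, M1 and M2 had 1459, 824.5, 925.5 and 1208 CPM of Fos, an immediate-early gene, while no other mouse exceeded 6.999 CPM. Values without these 4 are given beside many of the results below. All 4 mice high in Fos were among the 6 homozygous mice numbered in the 300s, and none was numbered in the 400s. Settings that select homozygous mice by number, leave out these 4 or adjust for immediate-early genes therefore overlap and are not independent. All WT and heterozygous mice had animal numbers in the 200s and all homozygous mice numbers in the 300s or 400s, so a difference between these ranges and one between genotypes cannot be told apart. In a bulk sample, fewer cells of a type and less RNA per cell cannot be told apart either.

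In microglia of homozygous Bin1-cKO mice, 2 of the 9 members differed from WT littermates at an adjusted p below 0.05, against 12.7% of all 12908 genes. Tgfb1 stood at 0.86 times and Smad3 at 1.19 times the WT level. Lower calls made up 7.09% of all genes and higher calls 5.66%. Neither gene reached the 1.5-fold change that the study required of a differentially expressed gene (DEG). In the edgeR test used here, which is not the study's DESeq2 test, 3.4% of all genes were DEGs. The largest difference of any member was a log2 fold change of -0.25, in Tgfbr2, which did not pass the test. For no member did the CPM ranges of the homozygous mice and WT littermates separate completely, which they did for 1.81% of all genes. Between heterozygous mice and WT littermates 0 of the 9 members passed the test, as did 0 of all genes (0%), with 0 members and 998 genes at an unadjusted p below 0.05. DESeq2 called 3 genes in that comparison and limma-voom 0, none of them members. Between homozygous and heterozygous mice 3 members passed, against 22.8% of all genes, namely Tgfb1, Smad2 and Smad3. Homozygous mice are compared with both other groups, so these comparisons share the homozygous libraries.

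**Figure D1:**
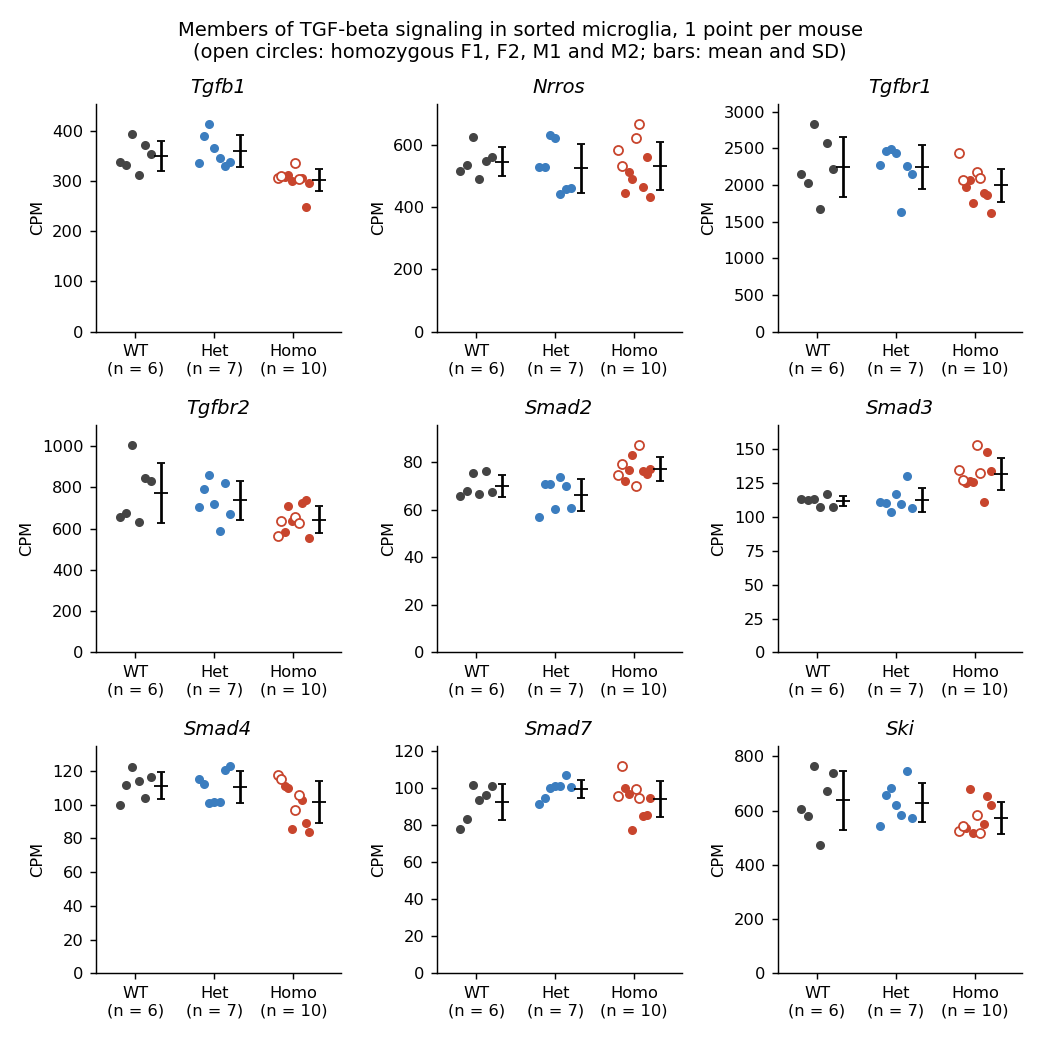
Level of each of the 9 members in CPM (vertical axes, each from 0) in every mouse by genotype (WT, Het for heterozygous, Homo for homozygous), with the mean and SD as a black bar and the homozygous mice F1, F2, M1 and M2, high in Fos, as open circles. Homozygous mice lie low in Tgfb1 and high in Smad3, with 9 of 10 outside the WT range in each, while the groups overlap broadly in Nrros, Smad7 and Ski.

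Per kilobase of annotated exon, the receptor gene Tgfbr1 was the most abundant member at a mean of 326.6 CPM per kb over all mice, and it ranked 38 by CPM among all genes tested. Nrros (127.8), Ski (109.2), Tgfbr2 (86.1) and Tgfb1 (65.9) followed in CPM per kb. Smad4 (28.8), Smad3 (21.8), Smad7 (21.1) and Smad2 (8.18) stood lowest in CPM per kb. The order of neighbours held in all 23 mice for most of the series. Exceptions were Nrros above Ski in 21 mice, Smad4 above Smad3 in 20 and Smad3 above Smad7 in 11. The Smad3 and Smad7 levels lay close together with overlapping ranges, and their order was not tested. In homozygous mice Smad3 was at 23.8 ± 2.16 and Smad7 at 20.8 ± 2.13 CPM per kb (SD). The 2 means were 20.3 ± 1.56 and 22.0 ± 1.09 in heterozygous mice, and 20.2 ± 0.68 and 20.4 ± 2.14 in WT littermates. Microglia thus carried far more receptor, latency and Ski mRNA than Smad mRNA per unit length, in every genotype. The other ligand genes were nearly absent, with Tgfb2 at no more than 0.796 CPM and Tgfb3 at no more than 0.730 CPM in any mouse.

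Tgfb1 encodes the ligand. Its level ran from 311 CPM through a median of 346 to 394 in WT littermates, from 329.1 through 345 to 413 in heterozygous mice and from 248 through 306 to 337 in homozygous mice. Of the 10 homozygous mice, 9 were below every WT and every heterozygous mouse, and only M1, at 337 CPM, lay among them. The means were 350.2 ± 29.8 CPM (SD, n = 6) in WT littermates, 359.5 ± 31.6 (n = 7) in heterozygous mice and 302.5 ± 22.0 (n = 10) in homozygous mice. Tgfb1 fell in homozygous mice, with a log2 fold change of -0.22 against WT littermates (SE 0.07, 95% interval -0.35 to -0.08, adjusted p = 0.029, edgeR) and of -0.25 against heterozygous mice (SE 0.06, adjusted p = 0.0065, edgeR), while heterozygous mice differed from WT littermates by 0.03 (95% interval -0.12 to 0.17, adjusted p = 0.96, edgeR). The call against WT littermates was lost without WT mouse M1 (-0.18, adjusted p = 0.10), M3 (-0.20, adjusted p = 0.075) or M4 (-0.21, adjusted p = 0.066), with scaling to library totals alone (-0.12, adjusted p = 0.13), with no filter on low counts (-0.22, adjusted p = 0.077) and with the 2 groups fitted alone (-0.21, adjusted p = 0.051). Without the 4 homozygous mice high in Fos, Tgfb1 differed by -0.26 from WT littermates (adjusted p = 0.036, edgeR) and by -0.28 from heterozygous mice (adjusted p = 0.013). The homozygous mice numbered in the 300s alone gave -0.17 (adjusted p = 0.13, edgeR) and those in the 400s alone -0.29 (adjusted p = 0.050, edgeR).

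Nrros, which holds latent TGF-beta1 at the surface of microglia, ran from 492 CPM through 542 to 626 in WT littermates, from 442 through 528.5 to 633 in heterozygous mice and from 433 through 522 to 667 in homozygous mice. The 3 ranges overlapped almost entirely. The log2 fold change was -0.05 in homozygous mice against WT littermates (SE 0.10, 95% interval -0.24 to 0.15, adjusted p = 0.81, edgeR), with the opposite sign under library totals alone (0.06). The homozygous mice high in Fos had Nrros levels of 586 CPM in F1, 532 in F2, 623 in M1 and 667 in M2, and the other 6 lay between 433 and 563. Leaving out these 4 gave a Nrros difference of -0.19 from WT littermates, which did not pass (adjusted p = 0.22, edgeR).

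Tgfbr1 encodes the type I receptor kinase. It ran from 1668 CPM through 2181 to 2826 in WT littermates, from 1626 through 2272 to 2486 in heterozygous mice and from 1616 through 2020 to 2430 in homozygous mice. The groups overlapped, with 1 of 10 homozygous mice below all others, and the log2 fold change of -0.19 against WT littermates did not pass the test (SE 0.10, 95% interval -0.39 to 0.02, adjusted p = 0.24, edgeR). The 4 mice high in Fos had 2065 to 2430 CPM of Tgfbr1 and the other 6 homozygous mice 1616 to 2066. Leaving out these 4 gave -0.29, which did not pass either (adjusted p = 0.12, edgeR). Tgfbr2, the ligand-binding type II receptor gene, ran from 629.7 CPM through 753 to 1003 in WT littermates, from 587 through 718 to 860.2 in heterozygous mice and from 555 through 637 to 737 in homozygous mice. All 10 homozygous mice were below the WT median of Tgfbr2, and 4 of 10 were below every WT mouse. Its log2 fold change of -0.25 against WT littermates missed the threshold (SE 0.10, 95% interval -0.45 to -0.06, adjusted p = 0.085, edgeR), and passed it without WT mouse M2 (-0.31, adjusted p = 0.037). Against heterozygous mice Tgfbr2 differed by -0.20 (adjusted p = 0.11, edgeR), and by -0.26 without heterozygous mouse M1 (adjusted p = 0.043).

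Smad3 encodes a receptor-activated transducer. It ran from 107 CPM through 113 to 117 in WT littermates, from 104 through 111 to 130 in heterozygous mice and from 111 through 130 to 153 in homozygous mice. Of the 10 homozygous mice, 9 exceeded every WT mouse, all but M3 at 111 CPM, and 5 exceeded every WT and heterozygous mouse. The means were 112 ± 3.74 CPM (SD, n = 6) in WT littermates, 113 ± 8.66 (n = 7) in heterozygous mice and 132 ± 11.9 (n = 10) in homozygous mice. Smad3 rose in homozygous mice, with a log2 fold change of 0.25 against WT littermates (SE 0.06, 95% interval 0.12 to 0.37, adjusted p = 0.011, edgeR) and of 0.22 against heterozygous mice (SE 0.06, adjusted p = 0.0089, edgeR). Without the 4 homozygous mice high in Fos the difference from WT littermates was 0.21 and missed the threshold (adjusted p = 0.072, edgeR), as it did from heterozygous mice (0.19, adjusted p = 0.064). With the mean log2 level of the immediate-early genes as a covariate it missed the threshold as well (0.20 and adjusted p = 0.087 against WT littermates, 0.18 and adjusted p = 0.090 against heterozygous mice).

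Smad2, the close relative of Smad3, ran from 65.7 CPM through 67.5 to 76.05 in WT littermates, from 56.7 through 70.05 to 73.7 in heterozygous mice and from 70.1 through 76.4 to 87.0 in homozygous mice. All 10 homozygous mice were above the medians of both other groups, and 5 exceeded every mouse of those groups. Smad2 rose by a log2 fold change of 0.22 in homozygous against heterozygous mice (SE 0.06, 95% interval 0.09 to 0.34, adjusted p = 0.013, edgeR), whereas the difference of 0.15 from WT littermates did not pass (SE 0.06, 95% interval 0.02 to 0.28, adjusted p = 0.13, edgeR) and did so under library totals alone (0.25, adjusted p = 0.0096). The Smad2 call against heterozygous mice was lost with the homozygous mice numbered in the 300s alone (0.20, adjusted p = 0.055) or in the 400s alone (0.24, adjusted p = 0.070) and with the immediate-early covariate (0.21, adjusted p = 0.061), and it held without the 4 mice high in Fos (0.21, adjusted p = 0.049). Smad4, the partner shared with the bone morphogenetic protein branch, ran from 100.1 CPM through 113 to 122.5 in WT littermates, from 100.8 through 112 to 122.8 in heterozygous mice and from 84.02 through 104 to 117.5 in homozygous mice. The 4 lowest Smad4 values of all mice were homozygous, and its log2 fold change of -0.14 against WT littermates did not pass (SE 0.08, 95% interval -0.30 to 0.03, adjusted p = 0.28, edgeR). Leaving out the 4 mice high in Fos gave -0.19 for Smad4 (adjusted p = 0.17, edgeR). Smad4, Smad7 and Smad2 share chromosome 18 with Bin1, the modified gene, at distances of 41.2, 42.9 and 43.8 Mb (18:73639009 to 73703780, 18:75367529 to 75395935 and 18:76241580 to 76310963 in GRCm38). Of the 304 genes tested on this chromosome, 14.8% passed between homozygous mice and WT littermates and 29.6% between homozygous and heterozygous mice, beside 12.7% and 22.6% of the genes on other chromosomes.

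Smad7, which feeds back on the receptor, ran from 77.8 CPM through 94.8 to 101 in WT littermates, from 91.6 through 100.4 to 107 in heterozygous mice and from 77.1 through 95.2 to 112 in homozygous mice. Ski, which represses Smad targets, ran from 472 CPM through 639.5 to 764 in WT littermates, from 543 through 621 to 747 in heterozygous mice and from 516 through 548 to 678 in homozygous mice. Neither inhibitor passed the test in any comparison. Against WT littermates, the log2 fold changes in homozygous mice were 0.04 for Smad7 (SE 0.07, 95% interval -0.11 to 0.19, adjusted p = 0.76, edgeR) and -0.14 for Ski (SE 0.09, 95% interval -0.33 to 0.04, adjusted p = 0.33, edgeR).

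**Figure D2:**
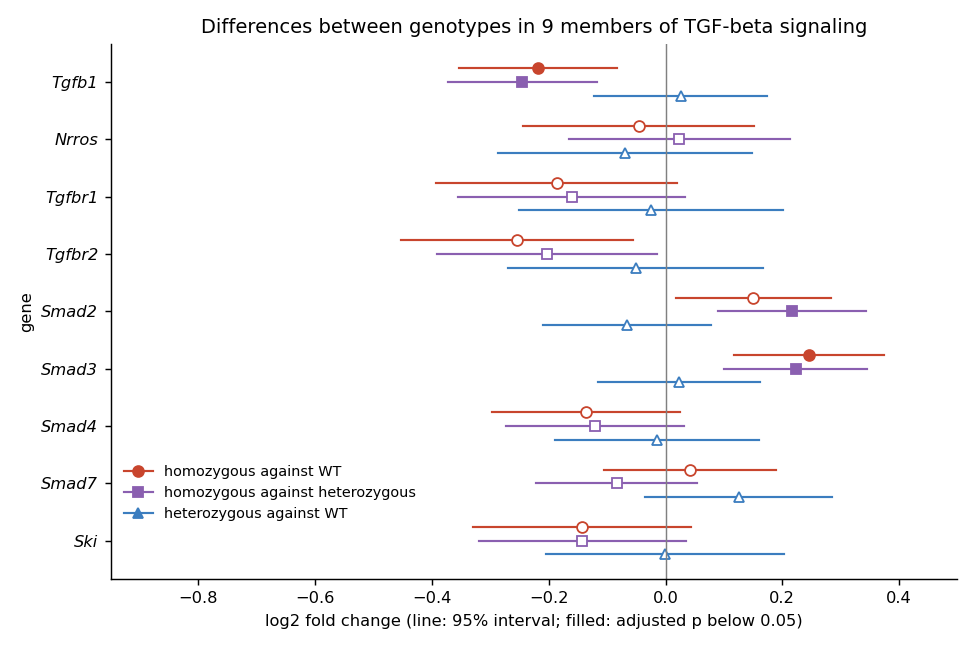
Log2 fold change (horizontal axis) of each of the 9 members (vertical axis) in the 3 comparisons between genotypes, with lines for the 95% interval and filled symbols where the adjusted p was below 0.05. Filled symbols stand below 0 for Tgfb1 and above 0 for Smad2 and Smad3, and no comparison of heterozygous mice with WT littermates is filled.

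In heterozygous mice no member passed the test against WT littermates, and the ranges of all 9 overlapped. The smallest adjusted p was 0.73, for Smad7 at a log2 fold change of 0.13 (SE 0.08, edgeR), and over the 9 members the 95% intervals reached from -0.29 for Nrros to 0.28 for Smad7. In heterozygous against WT mice the fold changes of Tgfbr1, Smad4 and Ski, each within 0.03 of 0 on the log2 scale, took the opposite sign under scaling to library totals alone.

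Mice of 1 genotype also differed among themselves. WT mouse M1 had the highest WT level of 7 of the 9 members, all but Smad2 and Smad3, and WT mouse M2 the lowest WT level of 6, Tgfb1, Tgfbr1, Tgfbr2, Smad3, Ski and Nrros. In the same mice the summed microglial markers were the highest (89310 CPM) and the lowest (62200 CPM) of the WT group, and their part in the results was not tested. The coefficient of variation in WT littermates ranged from 3.35% for Smad3 to 18.7% for Tgfbr2, beside a median of 10.4% over genes of at least 50 CPM. In homozygous mice it ranged from 6.44% for Smad2 to 14.5% for Nrros, beside a median of 9.93%.

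The effect of genotype was compared between females and males for each member. By edgeR's interaction test 0 of 9 members and 0 of 12908 genes (0%) passed, with 1 member and 644 genes at an unadjusted p below 0.05, and DESeq2 called 1 gene, not a member. That member was Smad7, whose log2 fold change against WT littermates was 0.26 in homozygous females and -0.09 in homozygous males (difference 0.35, SE 0.13, adjusted p = 0.91, edgeR). Its means were 80.5 ± 3.91 CPM in 2 WT females, 96.2 ± 12.4 in 5 homozygous females, 98.0 ± 3.91 in 4 WT males and 91.8 ± 6.38 in 5 homozygous males. The 2 WT females limit what this test could detect.

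The wider pathway was described with 6 lists by role, which together named 91 genes, of which 80 were tested. Of these 80, 25 passed in homozygous mice against WT littermates, with 9 higher and 16 lower, and 3 were DEGs. Over all genes 12.7% passed, 5.66% higher and 7.09% lower, and 3.4% were DEGs. Of the 25 genes, 8, all lower, came from the list of 14 microglial genes taken to need TGF-beta. That list was written with earlier results of these data known, so these counts are a description and no test. Without the 4 mice high in Fos 18 passed, 17 of them among the 25. Itgb5 (-0.54), Eng (-0.62), Dab2 (0.88) and Pmepa1 (-0.40), described below, were among those that still passed. Scaling to library totals alone gave 14 higher and 13 lower. Over all genes that scaling made 75.7% of the calls higher ones, beside 44.4% in the main analysis. The CPM ranges did not overlap between homozygous mice and WT littermates for 4 of the 80, Crebbp, Dab2, Cx3cr1 and P2ry13, beside 1.81% of all genes. They did not overlap between homozygous and heterozygous mice for 4, Crebbp, Pmepa1, Tmem119 and Cx3cr1, beside 2.32% of all genes. Between homozygous and heterozygous mice 29 of the 80 passed, 11 higher and 18 lower, beside 22.8% of all genes, and between heterozygous mice and WT littermates 0 did by edgeR.

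Among ligand and latency genes 5 of 12 tested passed in homozygous mice against WT littermates, 1 higher and 4 lower, beside 12.7% of all genes. Their median log2 fold change was -0.27, beside 0.01 over all genes. The 4 lower were Tgfb1 and 3 integrin beta chains. Itgb5 encodes a partner of the alpha V chain, and ran from 2960 CPM through 4241 to 4890 in WT littermates and from 2263 through 2873 to 3479 in homozygous mice. It fell, with a log2 fold change of -0.51 (SE 0.10, adjusted p = 0.0015, edgeR). Itgb3 fell by 0.55 (SE 0.13, adjusted p = 0.0061) and Itgb1 fell by 0.39 (SE 0.10, adjusted p = 0.0083), whereas Itgav, the alpha V chain, differed by -0.26 without passing (adjusted p = 0.16). Against heterozygous mice Itgb3 passed (-0.37, adjusted p = 0.031, edgeR) and Itgb1 did not (-0.23, adjusted p = 0.073, edgeR). With the homozygous mice numbered in the 400s alone Itgb3 (-0.47, adjusted p = 0.055) and Itgb1 (-0.42, adjusted p = 0.065) missed the threshold, and with the immediate-early covariate Itgb3 shrank to -0.36 (adjusted p = 0.11). The gene that rose was Plaur, the urokinase receptor gene, with a log2 fold change of 0.75 (SE 0.21, adjusted p = 0.019, edgeR) at 7.48 to 11.1 CPM in WT littermates and 7.70 to 22.4 in homozygous mice, and missed the threshold without WT mouse F2 (0.69, adjusted p = 0.051) and with the mice numbered in the 300s alone (0.56, adjusted p = 0.12). Itgb8, whose protein activates TGF-beta in brain, had no more than 1.35 CPM in any mouse.

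Among receptor genes 3 of 13 passed, 1 higher and 2 lower, with a median of -0.19, beside 12.7% of all genes that passed. Eng, the co-receptor endoglin, ran from 199 CPM through 239 to 273 in WT littermates and from 115 through 161 to 204 in homozygous mice, and fell, with a log2 fold change of -0.55 (SE 0.11, adjusted p = 0.0016, edgeR). Summed endothelial and pericyte markers also had a lower median in homozygous mice, and their part in the Eng difference was not tested. Bmpr2, the type II receptor gene for bone morphogenetic proteins, fell by 0.51 (SE 0.12, adjusted p = 0.0065), and missed the threshold without the 4 mice high in Fos (-0.41, adjusted p = 0.061) and with the immediate-early covariate (-0.40, adjusted p = 0.083). Fkbp1a, whose product FKBP12 binds the resting type I receptor, rose by 0.24 (SE 0.06, adjusted p = 0.013), a call that was lost with the homozygous mice numbered in the 300s alone (0.24, adjusted p = 0.051) or in the 400s alone (0.25, adjusted p = 0.090).

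Among the Smads and their cofactors 4 of 17 passed, 3 higher and 1 lower, with a median of -0.005, beside 12.7% of all genes that passed. Besides Smad3, Dab2, an endocytic adaptor gene, rose from 11.1 to 19.9 CPM in WT littermates to 19.9 to 41.6 in homozygous mice, a log2 fold change of 0.89 (SE 0.17, adjusted p = 0.0014, edgeR). Crebbp, a histone acetyltransferase gene and coactivator, fell by 0.26 (SE 0.06, adjusted p = 0.0080), with every homozygous mouse (66.9 to 80.8 CPM) below every WT mouse (83.9 to 93.7 CPM). The Crebbp call was lost under library totals alone (-0.16, adjusted p = 0.11), without the 4 mice high in Fos (-0.23, adjusted p = 0.057), with the mice numbered in the 400s alone (-0.23, adjusted p = 0.11) and with the immediate-early covariate (-0.23, adjusted p = 0.066).

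Among 16 genes listed as inhibitors 4 passed, 3 higher and 1 lower, with a median of 0.02, beside 12.7% of all genes that passed. The list also holds Rnf111 and Usp4, which do not act only as inhibitors, and neither passed. Pmepa1, a TGF-beta target gene whose product restrains Smad activation, ran from 653.5 CPM through 745 to 857 in WT littermates and from 460.0 through 565.5 to 658 in homozygous mice, and fell, with a log2 fold change of -0.44 (SE 0.09, adjusted p = 0.0027, edgeR). Skil, the paralog of Ski, rose by 0.34 (SE 0.09, adjusted p = 0.017), from 144 to 211.2 CPM in WT littermates to 173 to 246 in homozygous mice, but did not pass without the 4 mice high in Fos (0.28, adjusted p = 0.099), without WT mouse F1 (0.29, adjusted p = 0.074), with the mice numbered in the 400s alone (0.31, adjusted p = 0.11) or with the immediate-early covariate (0.27, adjusted p = 0.12). The list of direct targets also holds Skil and Pmepa1. Of its 15 tested genes 4 passed, 3 higher and 1 lower, with a median of 0.04, beside 12.7% of all genes that passed. Its largest change was Junb, a gene also on the immediate-early list, with a log2 fold change of 2.12 (SE 0.51, adjusted p = 0.0080, edgeR). Junb ran from 170.5 to 245 CPM in WT littermates and from 213.9 to 2391 in homozygous mice, and without the 4 mice high in Fos it differed by 0.27 (adjusted p = 0.076). All 10 immediate-early genes tested were higher in homozygous mice than in WT littermates and 9 passed, beside 5.66% of all genes that passed as higher. The summed level of that list was 8682 to 13070 CPM in the 4 mice high in Fos. It was 578.4 to 993.9 CPM in the other homozygous mice and 443.6 to 609.4 in WT littermates.

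The list of 14 microglial genes taken to need TGF-beta was written from general knowledge with earlier results of these data known. Its counts are therefore a description and no test of TGF-beta output. Of the 14, 8 passed and all 8 were lower in homozygous mice, with a median log2 fold change of -0.29. Over all genes 12.7% passed, 7.09% passed as lower and the median was 0.01. Among the 8 were Cx3cr1 (-0.51), P2ry13 (-0.51), Csf1r (-0.50), Gas6 (-0.47), Tmem119 (-0.43), Pros1 (-0.37) and P2ry12 (-0.33). Cx3cr1, the fractalkine receptor gene, ran from 7976 CPM through 9059 to 11870 in WT littermates and from 5683 through 6715 to 7160 in homozygous mice, so the groups did not overlap (adjusted p = 0.00018, edgeR). Tmem119, a gene of homeostatic microglia, ran from 7205 CPM through 8771 to 10400 in WT littermates and from 5920 through 6566 to 7213 in homozygous mice (adjusted p = 0.00029, edgeR). Sall1, a transcription factor gene of microglial identity, differed by -0.02 (SE 0.06, 95% interval -0.15 to 0.11, adjusted p = 0.89, edgeR), and Olfml3 (-0.01) and Fcrls (0.06) did not pass either. Of the 14 genes, 7 are also on the list of 10 microglial markers, of which 6 passed, all lower. Pros1 missed the threshold without the 4 mice high in Fos (-0.34, adjusted p = 0.058), without WT mouse M1 (-0.30, adjusted p = 0.051), with the mice numbered in the 400s alone (-0.33, adjusted p = 0.14) and with the immediate-early covariate (-0.32, adjusted p = 0.081). P2ry12 missed the threshold with the mice numbered in the 300s alone (-0.25, adjusted p = 0.074), and also against heterozygous mice (-0.20, adjusted p = 0.069, edgeR). Without the 4 mice high in Fos, Cx3cr1 (-0.56, adjusted p = 0.00098) and Tmem119 (-0.45, adjusted p = 0.0022) still passed.

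**Figure D3:**
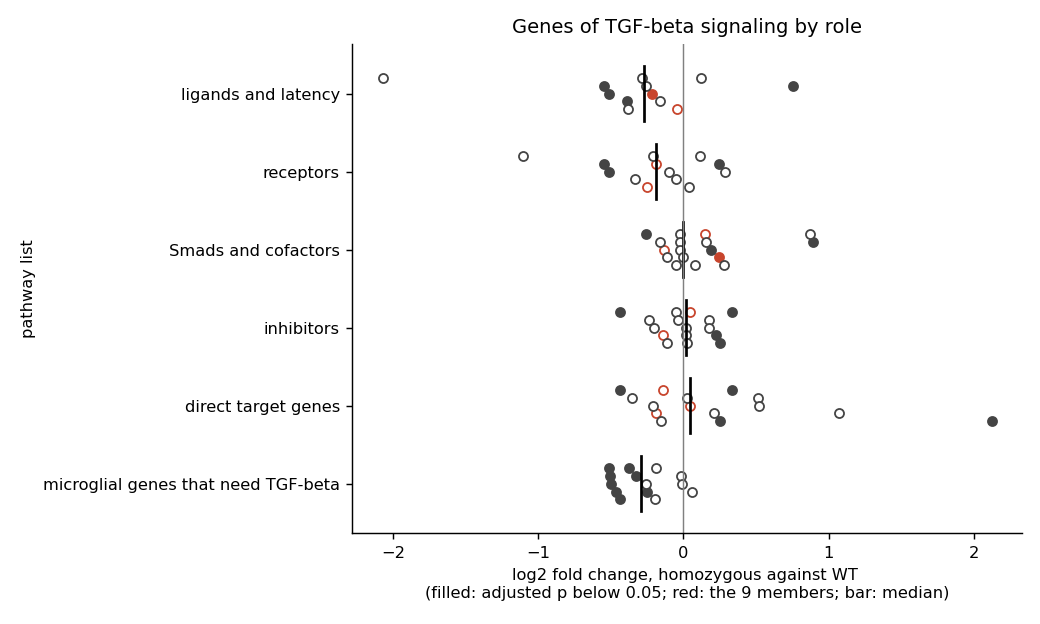
Log2 fold change in homozygous mice against WT littermates (horizontal axis) of every tested gene of the 6 lists (vertical axis), with filled circles where the adjusted p was below 0.05, red circles for the 9 members and a black bar at each list's median. The list of microglial genes that need TGF-beta has its 8 filled circles below 0, and the inhibitor and target lists have filled circles on both sides.

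Over all 23 mice and among 8785 other genes averaging 3 or more in log2 CPM, the genes whose levels followed Tgfb1 most closely were Selplg (Spearman's rho 0.94), Vsir (0.93) and Rtn4rl1 (0.93). Those most like Smad3 were Poli (0.84), Hnrnpul1 (0.81) and Eif4g2 (0.81). These values describe the 23 libraries, which share the difference between genotypes, and carry no test.

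Tgfb1 and Smad3 kept their direction between homozygous mice and WT littermates in all 38 other analyses, of which 15 changed the method, the filter or the mice and 23 left out 1 mouse each. Tgfb1 passed the threshold in 29 of these and Smad3 in 35. No member passed in a test against a 1.2-fold change.

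**Figure D4:**
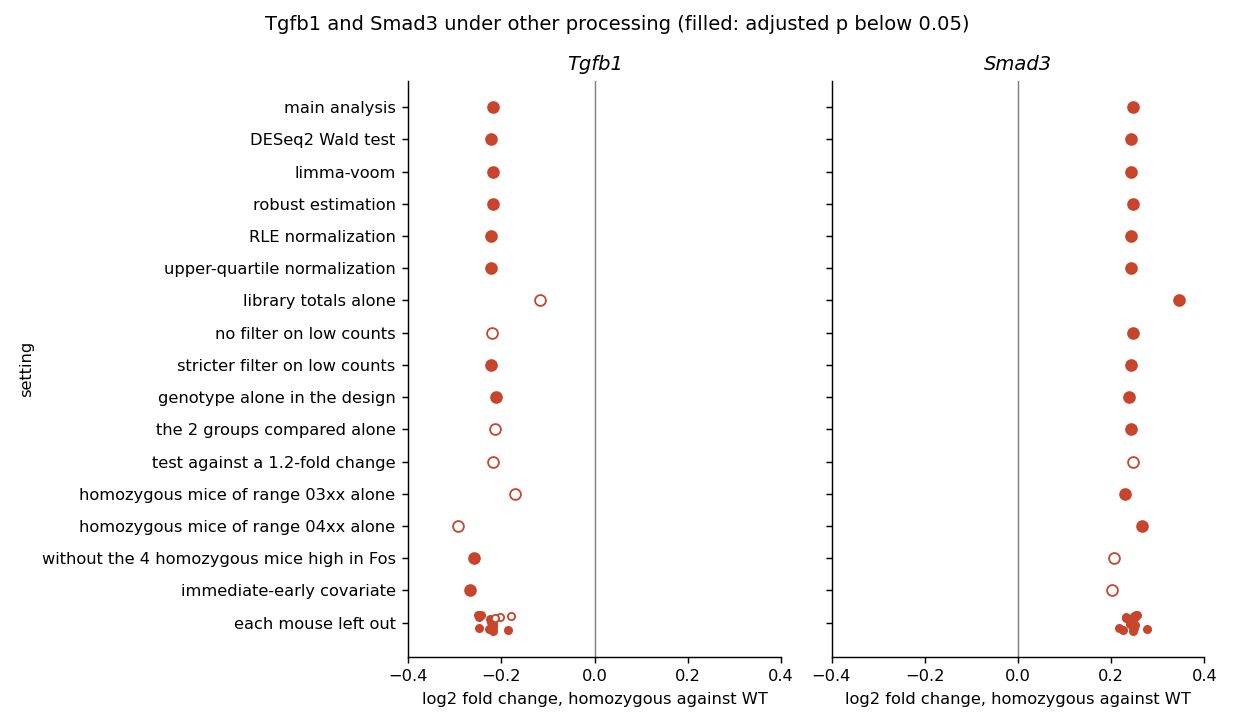
Log2 fold change in homozygous mice against WT littermates (horizontal axis) of Tgfb1 (left) and Smad3 (right) in the main analysis and under other processing (vertical axis), with 1 small circle for each mouse left out in the bottom line and filled circles where the adjusted p was below 0.05. All circles are below 0 for Tgfb1 and above 0 for Smad3, and open circles stand at different settings in the 2 genes except for the test against a 1.2-fold change.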

How the data were processed

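Per the labels and the study's methods, single-end reads of sorted microglia were mapped to mm10 by OSA4 (OmicSoft) under the R84 gene model of Ensembl, and the authors used RSEM to obtain expected counts of genes. Those were deposited as they were, 1 column per mouse and not scaled for depth or length, and 82.2% were whole numbers. A strand setting and the RSEM version are not given in the sources used here. Counts of genes that overlap others or share sequence can therefore be split in unknown ways. The labels name 25 mice, and 1 WT female and 1 heterozygous male without a column were not analysed here. Symbols and coordinates came from GENCODE vM21 (42929 of 43411 identifiers matched).

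Expected counts were rounded and fitted in edgeR 4.0.16 (R 4.3.3) with genotype and sex over all 23 mice after filterByExpr and TMM scaling. The quasi-likelihood test was adjusted by the Benjamini-Hochberg method over all 12908 genes. A gene passed at an adjusted p below 0.05, and was a DEG where its fold change was also above 1.5. CPM used TMM-scaled totals. CPM per kb used the union of annotated exons, which can exceed the length of the transcript in use. The test of sex added the interaction of genotype and sex. Group was taken from the genotype label, and each mouse was 1 replicate.

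The members and gene lists were chosen with earlier results of these data known, and the lists were written from general knowledge. Named in the text were all members, up to 20 other pathway genes that passed between homozygous mice and WT littermates in order of p, of which 1 is not reported here, and the 3 genes most like each member that passed. Itgav, Sall1, Olfml3, Fcrls, Tgfb2, Tgfb3 and Itgb8, which lie outside that rule, were chosen after their values were seen. Ltbp3, Lrrc32 and Ly6g were not analysed here, and Ctgf was matched as Ccn2. Of the marker lists, 3 of 5 neuronal genes tested passed between homozygous mice and WT littermates (all lower), 0 of 4 astrocyte, 2 of 4 oligodendrocyte (lower), 2 of 4 endothelial and pericyte (lower), 0 of 6 border macrophage and 1 of 4 monocyte and neutrophil genes (higher). Over all genes 12.7% passed, 7.09% lower and 5.66% higher. Alternatives were DESeq2 1.42.0, limma-voom (limma 3.58.1), robust estimation, other scalings and filters, other sets of mice, and a covariate of immediate-early genes. The tests were first tried on simulated data with log2 changes of 0.6, 1 and 1.5 in homozygous mice, and edgeR recovered 67.2% of the genes changed by 0.6. Changes as small as those of the members were not simulated. In that simulation DESeq2 called 3 genes between heterozygous and WT mice, where no gene had been changed. Figures were drawn with matplotlib 3.10.9.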

Additional observations from a re-analysis of the deposited data

Results flagged for a closer look

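The Tgfb1 level of homozygous mouse M4, 248 CPM, stood below the other 9 homozygous mice by 0.55 of that group's range. The Tgfbr1 level of heterozygous mouse M1, 1626 CPM, stood below the other 6 heterozygous mice by 0.61 of that group's range. These were 2 of 27 groups examined by Dixon's test, which flags about 1 group in 20 by chance. No member's genotype effect differed between females and males after adjustment.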

How the results depend on the processing

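The 2 members that passed between homozygous mice and WT littermates became 1 with no filter on low counts, with the 2 groups fitted alone, with the homozygous mice numbered in the 300s or in the 400s alone, without the 4 homozygous mice high in Fos and with the immediate-early covariate. The count was 0 in the test against a 1.2-fold change and ranged from 1 to 3 when single mice were left out. Under library totals alone it stayed at 2, with Smad2 in place of Tgfb1. The 25 pathway genes became 3 in the 1.2-fold test, 15 with the mice of the 400s alone and 16 with the covariate, and ranged from 20 to 27 with single mice left out. Between homozygous and heterozygous mice the 3 members became 0 in the 1.2-fold test and 1 with the covariate, and the 29 pathway genes became 5 and 18. Without the 4 mice high in Fos these counts were 2 and 22. The Smad2 call of that comparison was also lost with the mice of the 300s or of the 400s alone. The 1.2-fold test asks for more than a difference from 0, which lowers every count by construction, and the subsets hold fewer mice. For the other settings the cause was not tested.

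Sign changes were limited to values near 0 that did not pass in either analysis, except for Junb, which went from 2.12 to -0.00431 with the covariate, of which it is a part. Smad7 between homozygous mice and WT littermates became -0.0308 with the mice of the 400s alone, -0.0162 without the mice high in Fos and -0.0376 with the covariate, and ranged from -0.0112 to 0.0667 with single mice left out. Nrros became 0.0560 with library totals alone and 0.0104 with the mice of the 300s alone, and ranged from -0.0990 to 0.000289. Nrros between homozygous and heterozygous mice became -0.0544 with the mice of the 400s alone, -0.100 without the mice high in Fos and -0.135 with the covariate, and ranged from -0.0170 to 0.0727. Between heterozygous mice and WT littermates, library totals alone gave 0.0130 for Tgfbr1, 0.0202 for Smad4 and 0.0367 for Ski, genotype alone gave 0.000904 for Tgfbr1, and the 2 groups alone gave 0.0145 for Smad4. Ski became 0.00673 with limma-voom, 0.000646 with the 2 groups alone, 0.000628 with the mice of the 400s alone and 0.000776 without the mice high in Fos. With single mice left out the ranges were -0.0101 to 0.0632 for Tgfb1, -0.0884 to 0.0533 for Tgfbr1, -0.105 to 0.0270 for Tgfbr2, -0.0206 to 0.0420 for Smad3, -0.0619 to 0.0141 for Smad4 and -0.0724 to 0.0483 for Ski. DESeq2, limma-voom, robust estimation, the RLE and upper-quartile scalings and the stricter filter left each count of members unchanged. Depth limits values of a few CPM, not the 9 members, and 6 WT littermates limit the differences that could pass. No paired analysis was possible because the names of the mice pair none across genotypes.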
